A study of Sus scrofa with 9 samples.

Results

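Pachytene spermatocytes of the pig testis were compared with spermatogonia over all measured genes. The comparison rests on 6 of the 9 libraries of the series: those labelled spermatocyte, numbered 2, 3 and 4, against those labelled spermatogonia, numbered 1, 2 and 3. The 3 round spermatid libraries entered the fit to help estimate the spread and are not described here. Of 22342 genes in the table, 16802 passed a filter on low counts and were tested. The labels name the pig as the species, with no strain, age, treatment or genetic change for either group, and do not say how many animals stand behind the libraries, so p-values speak only of the spread among these libraries, part of which may be technical. The spermatocyte columns of the table are headed with the pachytene stage, the long middle stage of meiotic prophase. The spermatogonia columns are headed with KIT, the receptor of stem cell factor. The match of columns to samples rests on the meaning of those headings and on equal numbers.

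Spermatogonia divide by mitosis and supply the cells that enter meiosis. In pachytene spermatocytes the homologous chromosomes are held together along their length by the synaptonemal complex, a protein zipper built on the chromosome axes, while recombination intermediates are turned into crossovers. The X and Y chromosomes, which lack a partner over most of their length, are transcriptionally silenced at this stage in mammals, and the rest of the genome is transcribed strongly, with many messages of the later sperm made in advance and stored.

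Levels are given in CPM, estimated counts per 1000000 counts of the library, after a TMM factor has corrected each total for differences in RNA composition. Library totals were 63528653 to 64639201 estimated counts for spermatogonia and 59188641 to 61887148 for spermatocytes, and TMM factors were 1.09 to 1.1 and 0.774 to 0.853. Changes are log2 fold changes of spermatocytes over spermatogonia with their standard error (SE), from edgeR's quasi-likelihood test over all tested genes, and adjusted p-values are Benjamini-Hochberg adjusted over the same genes. A gene is said to have risen or fallen where that adjusted p was below 0.05, and to have passed the 2-fold test where edgeR's TREAT test against a 2-fold change gave an adjusted p below 0.05. In bulk samples such as these, fewer cells of a type and less RNA per cell cannot be told apart. The spermatogonia libraries lay closer to each other than the spermatocyte libraries did. A chi-square comparison of library pairs, taken gene by gene, had a median of 0.795 to 0.857 among spermatogonia and 4.62 to 9.54 among spermatocytes, and counting error alone would give 0.455. Among round spermatids it was 2.26 for libraries 1 and 3, and 21.3 and 19.8 for the pairs with library 2. Round spermatid 2 thus stood apart, and it enters the estimate of the spread behind each SE and p-value. The labels list 3 spermatogonia samples and they were used as such, and the counts of calls are also given with them summed to 1 sample.

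The labels were checked against marker genes of each cell type. SYCP2, which builds the lateral elements of the zipper, stood at 112, 118 and 113 CPM in spermatogonia 1, 2 and 3 and at 889.98, 1165 and 894 CPM in spermatocytes 2, 3 and 4 (log2 change 3.10 ± 0.20 SE, adjusted p = 1.07e-06). HORMAD1, which coats chromosome axes before synapsis, stood at 45.4, 43.9 and 42.2 and 312, 358 and 258 CPM (log2 change 2.82 ± 0.18 SE, adjusted p = 8.83e-07). Both were higher in every spermatocyte library than in any spermatogonia library, and so were SYCP1 and SYCP3. The other 2 spermatocyte markers went the other way: TEX101, a germ cell surface protein, averaged 181 in spermatogonia and 36.8 CPM and fell by 2.29 on the log2 scale, and OVOL2, a zinc finger regulator, was under 1 CPM in both stages and fell too. UCHL1, a ubiquitin hydrolase of spermatogonia, stood at 27.6, 24.9 and 25.7 CPM in spermatogonia and 2.45, 1.59 and 1.11 CPM in spermatocytes (log2 change -3.92 ± 0.31 SE, adjusted p = 2.59e-06). ZBTB16, GFRA1, DMRT1 and STRA8 were lower in spermatocytes as well. KIT, which heads the spermatogonia columns, stood at 6.36 ± 0.165 CPM in spermatogonia and 7.47 ± 0.747 CPM in spermatocytes (SD, n = 3). Every spermatocyte library lay above every spermatogonia library, though KIT did not pass the test (adjusted p = 0.104 in edgeR's test). KIT rose in 6 of the 17 alternatives, such as DESeq2 (log2 change 0.42) and leaving out spermatocyte 3 (0.31), and changed sign in 3. The markers thus moved with their labels in 4 of 6 spermatocyte genes and 5 of 6 spermatogonia genes. Of all tested genes 29.3% rose and 44.0% fell, and 59.6% fell among those averaging 0.77 to 4.29 CPM over both stages. Falls of low spermatogonia genes alone therefore say little of the labels. Levels of the spermatogonia genes were mostly low: GFRA1, like OVOL2, was under 1 CPM in both stages. ZBTB16 and STRA8 averaged 3.74 and 5.51 CPM in spermatogonia, and DMRT1 52.0 CPM.

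Genes of other cells were present under both labels. Of 14 Leydig cell genes tested, 13 fell and 1 rose, and their summed level was 488 to 520.3 CPM in spermatogonia and 47.1 to 50.2 CPM in spermatocytes. Of 21 Sertoli cell genes 16 fell and 1 rose, with sums of 471 to 475 and 376 to 458 CPM. Such sums follow their most abundant members. Among the Sertoli markers, INHA fell from 6.94 to 0.0791 CPM and CLDN11 from 8.19 to 0.135 CPM. GATA4 averaged 41.0 and 29.8 CPM and WT1 10.6 and 8.04 CPM. AMH, a Sertoli cell hormone, had no count in any spermatocyte library, and FSHR and LHCGR, the gonadotropin receptors of Sertoli and Leydig cells, had none in spermatocytes 3 and 4. AMH, FSHR and LHCGR were low in spermatogonia too, averaging 0.0997, 0.664 and 1.56 CPM there. Peritubular myoid genes summed to 69.95 to 71.3 and 43.4 to 62.1 CPM, endothelial genes to 79.1 to 82.5 and 47.3 to 73.4 CPM, and leukocyte genes to 41.97 to 46.1 and 16.1 to 23.5 CPM, and in each of these 3 lists spermatocyte 4 was the highest spermatocyte library. Of 20 leukocyte genes 17 averaged under 1 CPM in spermatogonia and 16 in spermatocytes. Erythrocyte genes summed to 3.79 to 4.24 and 3.99 to 5.28 CPM. Of 6 marker genes of round spermatids, 3 fell and 0 rose, a share of falls near the 44.0% of all tested genes. The falls were ACRV1, of the acrosome, from 119 to 39.5 CPM, SPACA1, of the same organelle, from 81.8 to 38.3 CPM and TNP1, a transition protein of sperm chromatin, from 306 to 154 CPM. TNP2, PRM1 and PRM2 did not pass the test. PRM1, a protamine that replaces histones in sperm, stood at 757, 742 and 739 CPM in spermatogonia and 682, 200.4 and 671 CPM in spermatocytes. Transcripts of these late germ cell markers were thus abundant in the libraries labelled spermatogonia, and each of the 6 was lowest in spermatocyte 3. The part that these admixed genes play in the results was not tested.

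**Figure D1:**
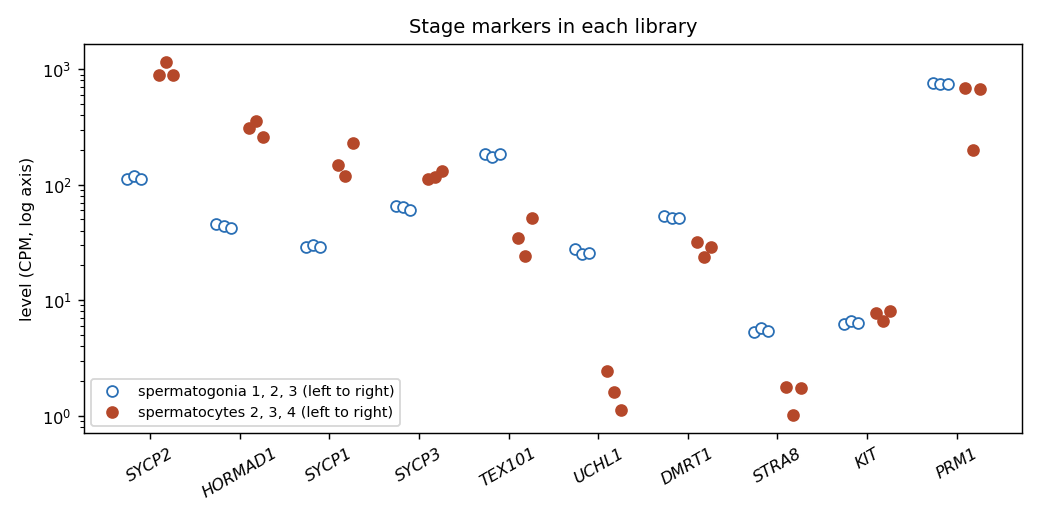
Levels of stage markers in each of the 6 libraries, in CPM on a log axis. Each point is 1 library, open circles spermatogonia and filled circles spermatocytes. SYCP2, HORMAD1, SYCP1 and SYCP3 lie higher in all 3 spermatocyte libraries, and TEX101 and UCHL1 lie lower. KIT lies slightly higher in the spermatocyte libraries without passing the test. PRM1 lies lower in the spermatocyte libraries without passing the test, with spermatocyte 3 the lowest at 200.4 CPM.

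Most genes differed between the stages. In edgeR's test 4930 genes (29.3% of those tested) rose and 7400 (44.0%) fell, and 2045 (12.2%) rose and 3611 (21.5%) fell in the 2-fold test. With the spermatogonia libraries summed to 1 sample, 3228 rose and 5916 fell. The 3 libraries of one stage all lay above those of the other for 31.9% of genes, higher in spermatocytes, and for 48.1%, lower. The median change of all tested genes was -0.32, and it ranged from -0.74 to -0.09 over other ways of scaling the libraries, so group medians are read against it. Of the calls at an adjusted p below 0.05, 40.0% were rises, against 46.4% with DESeq2's size factors, 48.4% without the 50 most abundant genes, 26.8% without scaling factors and 23.4% on TPM, the length-scaled values of the authors' second table.

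The direction went with the level of a gene. Tested genes were put in 5 equal bins of mean level over both stages. In the highest bin 51.8% rose and 28.1% fell, with a median change of 0.37. In the bin next to the lowest, between 0.77 and 4.29 CPM, 15.4% rose and 59.6% fell, with a median of -0.93. Between 13199 and 13218 genes reached 1 CPM in spermatogonia and 11779 to 12322 in spermatocytes, while 2188 to 2206 and 2476 to 2635 genes reached 100 CPM. The 10 most abundant genes took 4.73 to 4.75% of counts in spermatogonia and 6.94 to 8.24% in spermatocytes. The ranges of the stages do not overlap in any of these 3 measures: spermatocyte RNA held fewer genes above 1 CPM, more genes above 100 CPM and a larger share in its leading genes. Unlike that share, the numbers of genes above a CPM level depend on the TMM factors. These were lower for spermatocytes, which raises their CPM, and the numbers are given under these factors alone. Genes of a bulk sample differ in length, and CPM is not scaled for it, so levels are compared between stages and not between genes.

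**Figure D2:**
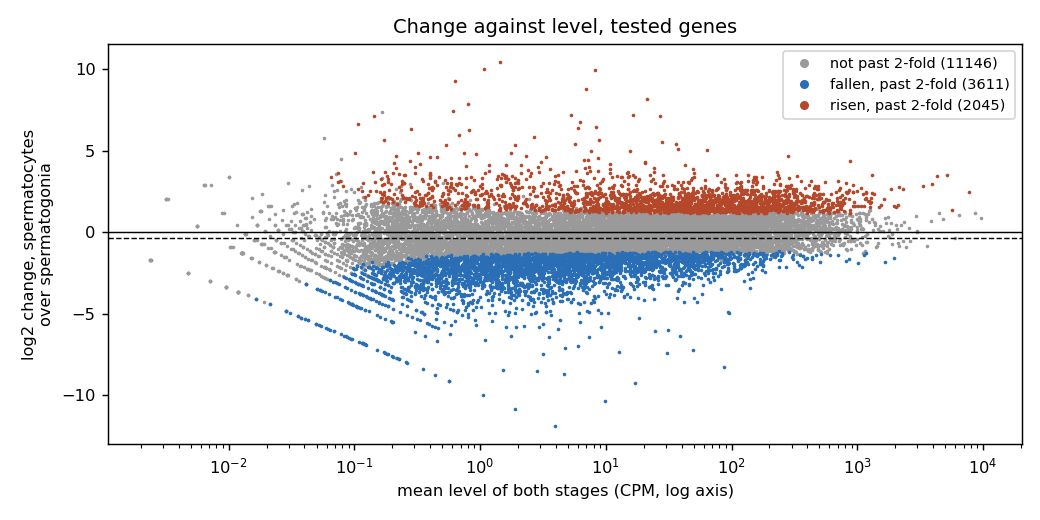
Log2 change of spermatocytes over spermatogonia against the mean level of both stages in CPM, on a log axis, for the 16802 tested genes, with a line at no change and a dashed line at the median of all genes. Genes that passed the 2-fold test are coloured, 2045 risen and 3611 fallen, and the falls spread over low levels while the rises sit further to the right.

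The steepest rises among genes of at least 50 CPM were led by RAB8B, a GTPase of vesicle traffic, and SMC6, the ATPase core of the SMC5/6 complex of chromosome repair. RAB8B stood at 20.1, 21.6 and 22.4 CPM in spermatogonia and 523, 623 and 469 in spermatocytes (log2 change 4.66 ± 0.50 SE, adjusted p = 1.77e-05). SMC6 stood at 78.4, 81.1 and 78.2 and 1746, 1904 and 1357 CPM (log2 change 4.40 ± 0.42 SE, adjusted p = 8.22e-06). C14orf39, the central element protein also known as SIX6OS1, followed at 7.73, 7.501 and 7.26 and 98.3, 95.3 and 84.04 CPM (log2 change 3.63 ± 0.24 SE, adjusted p = 1.2e-06). In each of these genes every spermatocyte library lay far above every spermatogonia library. ABCE1 (chromosome 8, 83302055 to 83353208), which splits ribosomes after translation ends, stood at 38, 36.4 and 38.5 CPM in spermatogonia and 431, 473 and 386 in spermatocytes (log2 change 3.51 ± 0.14 SE, adjusted p = 2.18e-07). SREK1 (chromosome 16, 44578531 to 44621898), a splicing regulator with an SR domain, stood at 21.6, 21.7 and 22.1 and 245, 249 and 252 CPM (log2 change 3.51 ± 0.33 SE, adjusted p = 7.61e-06). The groups are far apart and the spermatocyte libraries lie within a narrow range for SREK1. USP53, of the ubiquitin-specific protease family, TPRKB, a subunit of the KEOPS complex that modifies tRNA, and CFAP210, a protein inside ciliary microtubules, had log2 changes of 3.50, 3.42 and 3.46.

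Measured as the amount of RNA rather than as a ratio, the rises were led by other genes. DKKL1 (chromosome 6, 54462367 to 54468363), a glycoprotein of the acrosome, stood at 2382, 2306 and 2342 CPM in spermatogonia and 16409, 12575 and 9957 CPM in spermatocytes (log2 change 2.47 ± 0.45 SE, adjusted p = 0.000564), and was the most abundant gene by CPM in spermatocytes. PSIP1 (chromosome 1, 207173264 to 207216437), a chromatin reader that tethers other proteins to transcribed genes, stood at 727, 734 and 744 and 8586, 8132 and 7002 CPM (log2 change 3.43 ± 0.37 SE, adjusted p = 1.7e-05). CLGN (chromosome 8, 86621120 to 86674994), calmegin, the testis chaperone of the endoplasmic reticulum that folds sperm surface proteins, stood at 909, 896 and 895 and 7439, 7496 and 6113 CPM (log2 change 2.96 ± 0.24 SE, adjusted p = 3.04e-06). In all 3 genes the groups are clear of each other, and spermatocyte 4 is the lowest spermatocyte library. The messenger RNA binding proteins YBX1, YBX2 and PABPC1, which coat and store germ cell messages, and the chaperone HSP90AA1 were already abundant in spermatogonia and rose by 1.19, 0.91, 1.09 and 1.40 on the log2 scale. Transcripts of the mitochondrial genome also gained: 11 of its 13 tested genes rose, 0 fell, and their share of counts was 0.690 to 0.706% in spermatogonia and 1.37 to 2.07% in spermatocytes.

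The steepest falls included genes of Leydig cells, a gene of Sertoli cells and a gene of late germ cells. The Leydig cell gene INSL3 stood at 179, 167 and 174 CPM in spermatogonia and 0.627, 0.371 and 0.689 in spermatocytes (log2 change -8.25, adjusted p = 3.37e-08). CYP17A1, another Leydig cell gene, fell from 98.0 to 0.662 CPM (log2 change -7.19). Both fell further than the genes that follow. CLU, clusterin, a secreted chaperone made in quantity by Sertoli cells, stood at 186, 183 and 182 CPM in spermatogonia and 7.13, 5.04 and 5.89 in spermatocytes (log2 change -4.93 ± 0.15 SE, adjusted p = 5.53e-08). OPN4 (chromosome 14, 87645563 to 87660820), melanopsin, the light receptor of retinal ganglion cells, stood at 179.5, 179.5 and 182 and 5.74, 6.92 and 5.87 CPM (log2 change -4.87 ± 0.20 SE, adjusted p = 2.18e-07). SPACA4, a membrane protein of the sperm acrosome, stood at 100.1, 101.2 and 103 and 5.21, 2.95 and 7.33 CPM (log2 change -4.29 ± 0.33 SE, adjusted p = 2.3e-06). No library of one stage reached the other in these genes. By amount, the falls were led by other genes. TRIM28 (chromosome 6, 63094382 to 63101532), the corepressor recruited by KRAB zinc finger proteins, stood at 2584, 2567 and 2567 CPM in spermatogonia and 782, 763 and 692 in spermatocytes (log2 change -1.79 ± 0.19 SE, adjusted p = 1.41e-05). The polyubiquitin gene UBB fell from 1649 to 678 CPM, the ribosomal stalk protein gene RPLP0 from 1586 to 437 CPM and GPX4, the phospholipid peroxidase that later forms part of the sperm midpiece, from 1614 to 626 CPM.

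Genes of the meiotic chromosome structure were mostly higher in spermatocytes, and those that make the DNA breaks were close to all genes. Of 7 synaptonemal complex genes 5 rose and 0 fell, with a median change of 0.92 against -0.32 for all genes. Of 16 genes of the chromosome axis and synapsis surveillance 11 rose and 4 fell (median 0.61), and 7 rose when any 1 spermatogonia library was left out. SMC1B, the meiotic cohesin ring subunit, stood at 132, 140.2 and 135 CPM in spermatogonia and 618, 711 and 614 in spermatocytes (log2 change 2.25 ± 0.20 SE, adjusted p = 5.29e-06). MDC1, which spreads the damage mark over the unsynapsed sex chromosomes, stood at 608, 628 and 642 and 2399, 2807 and 2628 CPM (log2 change 2.06 ± 0.29 SE, adjusted p = 0.000107), and its partner TOPBP1 rose by 1.64. The meiotic kleisin REC8, which closes the cohesin ring, went the other way, at 81.1, 82.6 and 78.2 and 16.2, 10.3 and 18.4 CPM (log2 change -2.43 ± 0.19 SE, adjusted p = 2.46e-06), so the cohesin subunits did not share a direction. Of 10 break formation genes 2 rose and 5 fell, 20 and 50% against 29.3 and 44.0% of all genes (median -0.39 against -0.32), among the falls SPO11, the enzyme that cuts the DNA, from 6.97 to 2.62 CPM, MEI1 from 15.3 to 4.02 CPM and REC114 from 11.6 to 6.30 CPM. Whether these lists differ from each other was not tested.

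Repair genes that act after the break were split. Of 20 strand exchange genes 10 rose and 4 fell (median 0.39). BRCA2, which loads recombinases on DNA, stood at 7.97, 8.80 and 7.73 CPM in spermatogonia and 43.7, 58.3 and 47.6 in spermatocytes (log2 change 2.61 ± 0.19 SE, adjusted p = 1.66e-06). RAD54B, a motor protein of strand invasion, had a log2 change of 3.003, and MEIOB's partner SPATA22 one of 1.48, whereas DMC1, the meiotic recombinase, fell by 0.60 on the log2 scale, a call lost in 11 of the 17 alternatives, those without spermatocyte 2 or 3 or any 1 spermatogonia library among them. Of 19 crossover genes 7 rose and 6 fell (median 0.17). The helicase HFM1 rose by 1.18, while MUS81, the nuclease of the alternative crossover route, stood at 7.78, 7.43 and 7.66 and 0.843, 0.764 and 1.15 CPM (log2 change -3.05 ± 0.29 SE, adjusted p = 7.7e-06). Within 1 dissolution complex the members parted: RMI1 rose by 2.09 and TOP3A fell by 1.71. The 6 tested genes of the SMC5/6 complex gave 5 rises and 1 fall (median 0.83), with SMC6 far above the next, SLF1, at 1.72. The medians of the strand exchange and crossover lists fell below 0 on TPM and without scaling factors, but stayed above the median of all genes in each of the 17 alternatives.

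Most genes of chromosome segregation were higher in spermatocytes. Of 33 centromere and kinetochore genes 24 rose and 1 fell, 13 of them rising in the 2-fold test and 0 falling (median 0.89). SKA1, which holds kinetochores on moving microtubule ends, stood at 3.04, 2.97 and 2.96 CPM in spermatogonia and 53.1, 47.6 and 35.2 in spermatocytes (log2 change 3.92 ± 0.34 SE, adjusted p = 4.66e-06). CENPE, the kinetochore motor, stood at 23.4, 26.99 and 23.7 and 184, 229.9 and 228 CPM (log2 change 3.11 ± 0.25 SE, adjusted p = 3.04e-06). CENPK and CENPC, which link the centromere to the outer kinetochore, had log2 changes of 3.13 and 2.36. In every one of these genes the stages were apart, and the single fall was that of CENPM, by 0.74 on the log2 scale. Of 33 centrosomal genes with the symbol CEP 25 rose and 1 fell, 13 and 0 in the 2-fold test (median 0.89). CEP135, a builder of the centriole wall, stood at 26.3, 28.9 and 27.7 and 276, 328 and 259 CPM (log2 change 3.38 ± 0.24 SE, adjusted p = 1.48e-06), and CEP290, a gatekeeper at the base of the cilium, at 49.5, 55.6 and 48.6 and 464, 593 and 507 CPM (log2 change 3.35 ± 0.33 SE, adjusted p = 9.46e-06).

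Regulators of the division itself were less uniform. Of 32 cell cycle genes 14 rose and 10 fell (median 0.27, below 0 on TPM and without scaling factors), with 5 rises and 0 falls in the 2-fold test. SGO2, the shugoshin that protects centromeric cohesin, stood at 176, 183 and 184 CPM in spermatogonia and 763, 854 and 801 in spermatocytes (log2 change 2.15 ± 0.17 SE, adjusted p = 2.8e-06). FBXO5, an inhibitor of the anaphase-promoting complex, and TTK, the spindle checkpoint kinase, rose by 2.13 and 1.46 on the log2 scale. ESPL1, the separase that cuts cohesin, fell by 1.19. Of 39 kinesins 12 rose and 15 fell, 30.8 and 38.5%, near the 29.3 and 44.0% of all genes. KIF20B and KIF18A, both kinesins of dividing cells, rose by 2.47 and 2.22. Genes for replicating DNA were mostly lower: of 34, 6 rose and 20 fell (median -0.68), with CDT1, which licenses origins, falling from 9.14 to 1.15 CPM, the clamp loader subunit RFC3 from 19.4 to 4.55 CPM and the helicase subunit MCM3 from 15.9 to 4.36 CPM.

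Most genes of the cilium and flagellum trains were higher too. Of 36 genes of intraflagellar transport and the BBSome, the coat that carries cargo along cilia, 22 rose and 4 fell, 8 and 0 in the 2-fold test (median 0.58). IFT74, a core train protein, stood at 68.8, 68.99 and 70.3 CPM in spermatogonia and 400.3, 394 and 389 in spermatocytes (log2 change 2.51 ± 0.32 SE, adjusted p = 5.46e-05). BBS5 and the train motors KIF3A and DYNC2H1 had log2 changes of 2.65, 2.198 and 2.41. DYNC2H1 varied most among spermatocytes, with 39.6, 109 and 98.4 CPM in libraries 2, 3 and 4. On TPM with a pseudocount of 1 the rises were 16 of the kinetochore genes, 15 of the CEP genes and 9 of the transport genes. IFT140 and IFT43, of the return train, fell, with log2 changes of -1.11 and -1.08. Tubulins, the tracks themselves, mostly fell: 3 rose and 11 fell of 17 (median -1.08), TUBB from 52.4 to 12.7 CPM.

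**Figure D3:**
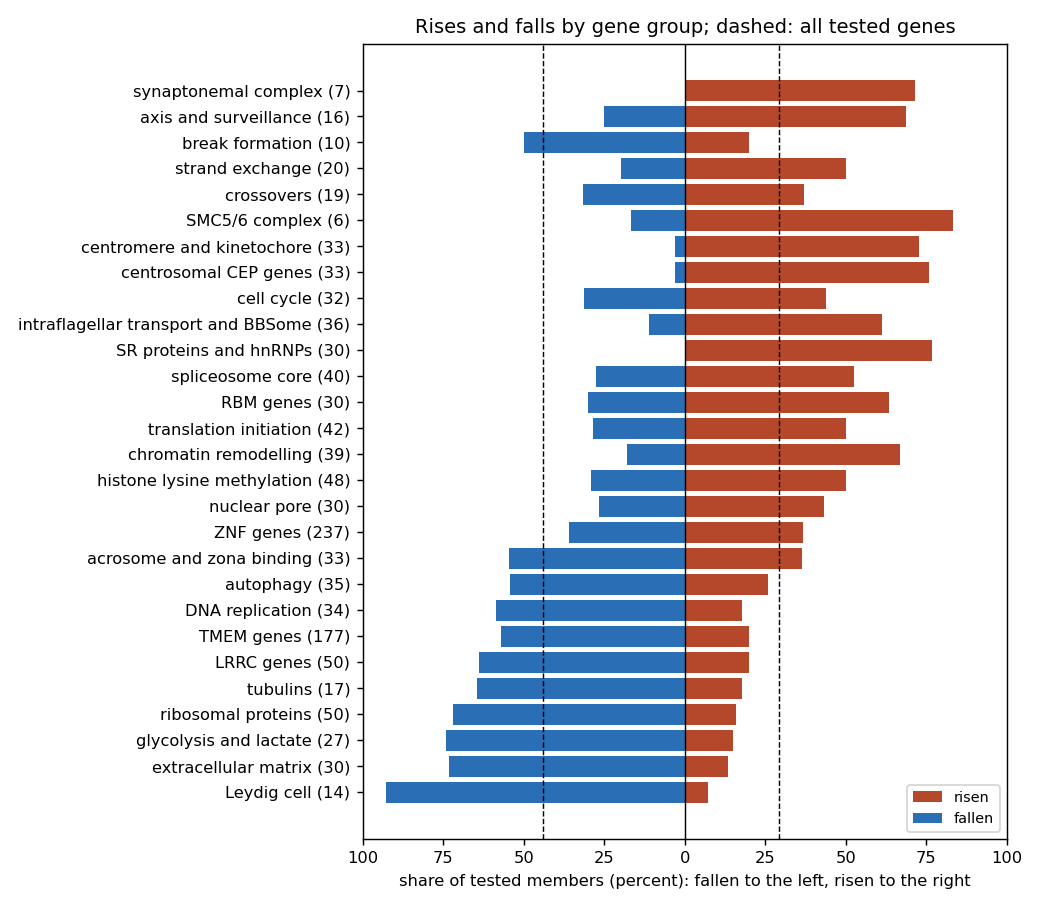
Share of tested members that rose (right) and fell (left), in percent, for lists and families described in the text, with the number tested beside each name. Dashed lines mark the shares over all tested genes, 29.3% risen and 44.0% fallen, and SR proteins with hnRNPs, CEP genes and kinetochore genes each have over 70% risen.

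Splicing regulators had the highest median change of all lists and families examined. SR proteins and hnRNPs bind pre-messenger RNA and set which exons are joined. Of 30 tested 23 rose and 0 fell, 16 and 0 in the 2-fold test, with a median change of 1.35. SRSF11 stood at 94.5, 96.02 and 98.6 CPM in spermatogonia and 784, 742 and 645 in spermatocytes (log2 change 2.91 ± 0.31 SE, adjusted p = 1.57e-05). SRSF10, which represses splicing in its unphosphorylated form, stood at 64.8, 66.5 and 63.1 and 370.4, 379 and 316 CPM (log2 change 2.45 ± 0.12 SE, adjusted p = 4.42e-07). HNRNPH1, a binder of G runs, stood at 180.3, 177 and 176 and 949.8, 1013 and 715 CPM (log2 change 2.33 ± 0.19 SE, adjusted p = 3.46e-06). On TPM with a pseudocount of 1, 19 rose and 1 fell. Every spermatocyte library exceeded every spermatogonia library in these genes, and TRA2A, an activator of exon inclusion, rose by 2.57. The general machinery was more divided. Of 40 core spliceosome genes 21 rose and 11 fell (median 0.45), but 11 and 17 on TPM with a pseudocount of 1, where the median was below 0. Within the Sm ring SNRPF rose by 2.59 while SNRPD2 fell by 1.59.

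Other RNA-binding groups were more divided. Of 30 genes with the symbol RBM 19 rose and 9 fell, 10 and 2 in the 2-fold test (median 0.82). RBM25, a splicing factor, stood at 48.3, 46.9 and 50.7 CPM in spermatogonia and 411, 413 and 324 in spermatocytes (log2 change 2.98 ± 0.23 SE, adjusted p = 2.21e-06), and RBM46, a germ cell protein needed for meiotic entry, rose by 1.81, while RBM38, an RNA stability factor, fell by 2.08. Of 28 regulators of meiotic RNA 13 rose and 10 fell. MEIOC and YTHDC2, partners that clear mitotic transcripts, stood at 164 ± 5.49 CPM in spermatogonia and 849.8 ± 113 CPM in spermatocytes (SD, n = 3) and 20.8 ± 0.573 CPM in spermatogonia and 73.2 ± 9.34 CPM in spermatocytes (SD, n = 3), and rose by 2.38 and 1.82. TUT4, which adds uridines to messages, rose by 1.76. NANOS1 and NANOS3, translational repressors of early germ cells, fell, with log2 changes of -2.96 and -2.95. Of 18 germ granule genes 9 rose and 4 fell, ASZ1 leading at 1.68 and PIWIL4, the nuclear PIWI protein of fetal and early germ cells, falling with a log2 change of -2.95. The medians of the last 2 groups, 0.24 and 0.35, fell below 0 on TPM and without scaling factors.

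Translation factors and ribosomal proteins parted. Of 42 initiation factors 21 rose and 12 fell (median 0.42), but 6 and 14 on TPM with a pseudocount of 1, where the median was below 0. EIF3A, the scaffold of the EIF3 complex, stood at 159.8, 168 and 159 CPM in spermatogonia and 596, 587 and 622 in spermatocytes (log2 change 1.89 ± 0.23 SE, adjusted p = 3.79e-05). Another subunit of the same complex, EIF3F, stood at 282, 273 and 283 and 95.8, 93.4 and 95.8 CPM (log2 change -1.56 ± 0.18 SE, adjusted p = 3.04e-05). The inhibitor EIF4EBP1 fell by 2.15. Of 50 cytosolic ribosomal protein genes 8 rose and 36 fell (median -1.03), RPS9 from 195 to 42.98 CPM, although RPS24 rose by 1.85; ribosomal protein genes share reads with pseudogenes, so their single values are uncertain.

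Most chromatin remodellers were higher in spermatocytes. Of 39 remodelling ATPases and partners 26 rose and 7 fell, 13 and 1 in the 2-fold test (median 0.80). On TPM with a pseudocount of 1, 17 rose and 8 fell. CHD1, a remodeller of transcribed genes, stood at 33.5, 37.4 and 36.2 CPM in spermatogonia and 229, 291 and 252 in spermatocytes (log2 change 2.85 ± 0.22 SE, adjusted p = 2.29e-06). BAZ1A, the partner of SMARCA5 in the ACF complex, stood at 128, 136 and 131 and 746, 899 and 809 CPM (log2 change 2.63 ± 0.28 SE, adjusted p = 1.42e-05). BPTF, the reader of the NURF complex, and BAZ2B had log2 changes of 2.54 and 2.39. The stages do not overlap in any of these genes. SMARCD3, a SWI/SNF subunit of muscle and heart, was the fall that passed the 2-fold test, by 2.82. Of 48 genes that write or erase histone lysine methylation 24 rose and 14 fell (median 0.31, below 0 on TPM, where 15 rose and 15 fell, and without scaling factors). KMT2E and KMT2A, of the MLL family, rose by 2.43 and 2.02, JMJD1C, a member of the JmjC demethylase family, by 2.56 and SUZ12, of the Polycomb complex that methylates histone H3, by 2.04, while the JmjC protein KDM8 fell by 1.73.

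Regulators of meiotic transcription included genes with opposite moves. Of 24 tested 13 rose and 7 fell (median 0.30, below 0 on TPM and without scaling factors). MYBL1, the MYB factor that switches on pachytene genes, stood at 52.7, 57.2 and 56.6 CPM in spermatogonia and 316, 357 and 340.4 in spermatocytes (log2 change 2.60 ± 0.16 SE, adjusted p = 8.37e-07). BRDT, the testis bromodomain protein, rose by 1.21. STRA8 and MEIOSIN, the pair that starts meiosis, fell, with log2 changes of -1.87 and -1.997, each with the stages apart. Of 30 nuclear pore genes 13 rose and 8 fell, AHCTF1, which seeds pores on chromatin, by 1.81 and NUP210, a pore membrane protein, falling with a log2 change of -2.39. Their median of 0.07 was below that of all genes on TPM with a pseudocount of 1.

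**Figure D4:**
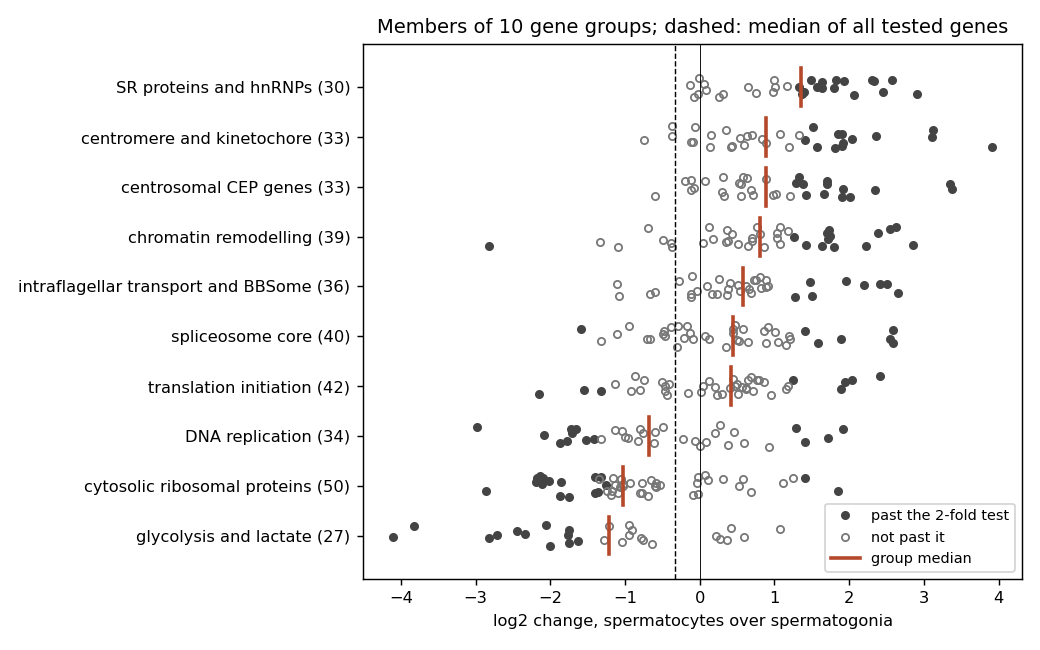
Log2 change of each tested member of 10 groups, 1 point per gene, with the median as a vertical bar and a dashed line at the median of all tested genes, -0.32. Filled points passed the 2-fold test. No SR protein or hnRNP passed the 2-fold test downward, whereas ribosomal proteins, DNA replication and glycolysis lie mostly to the left.

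Groups of metabolism ran from mostly lower in spermatocytes to near the level of all genes. Of 27 genes of glycolysis and lactate 4 rose and 20 fell, 0 and 12 in the 2-fold test (median -1.22). GAPDH, the somatic glyceraldehyde phosphate dehydrogenase, stood at 82.6, 78.9 and 80.6 CPM in spermatogonia and 13.4, 10.4 and 10.6 in spermatocytes (log2 change -2.82 ± 0.14 SE, adjusted p = 3.74e-07). PFKL, the liver form of phosphofructokinase, stood at 7.36, 6.68 and 7.17 and 0.588, 0.327 and 0.306 CPM (log2 change -4.11 ± 0.23 SE, adjusted p = 5.76e-07). LDHA, a lactate dehydrogenase, rose by 1.08 against that trend. Of 29 nuclear genes for complex I of the respiratory chain 7 rose and 17 fell (median -0.77), whereas the mitochondrial genome's own transcripts rose as given above. Of 40 mitochondrial carriers 8 rose and 23 fell (median -0.61), with the adenine nucleotide carrier SLC25A6 falling from 101.3 to 27.5 CPM. Of 25 genes of cholesterol synthesis 6 rose and 14 fell, 0 and 7 in the 2-fold test (median -0.33, close to the -0.32 of all genes), and DHCR7, the last enzyme of the pathway, fell from 10.9 to 2.02 CPM. Of 35 autophagy genes 9 rose and 19 fell (median -0.44), ATG4B and MAP1LC3A falling with log2 changes of -1.73 and -1.75 and RB1CC1, the scaffold of the initiating kinase, rising by 1.90.

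Among membrane and matrix genes, 35 of 177 with the symbol TMEM rose and 101 fell (median -0.69), and 10 of 50 with the symbol LRRC rose and 32 fell (median -1.01). Of 36 signalling ligands and receptors of the early germ line 5 rose and 20 fell (median -0.93, which lay above that of all genes on TPM with a pseudocount of 1). Of 20 genes of undifferentiated spermatogonia 5 rose and 10 fell, 25 and 50%, near the 29.3 and 44.0% of all genes (median -0.53). Their summed level was 440 to 445 CPM in spermatogonia and 500 to 589 CPM in spermatocytes. Of 19 genes of differentiating spermatogonia and meiotic entry 4 rose and 11 fell (median -0.96), with sums of 582 to 598 CPM in spermatogonia and 617 to 722 CPM in spermatocytes. Both sums were thus higher in every spermatocyte library, against the direction of most members that passed the test. RET, the GDNF receptor of stem cells, and FGFR3 fell, with log2 changes of -3.11 and -3.10, while BMP4 and its receptor BMPR1A rose by 2.003 and 1.76. Of 30 extracellular matrix genes 4 rose and 22 fell (median -1.26), and of 12 insulin-like growth factor genes 0 rose and 8 fell (median -1.85). Immediate early genes, which respond to stress and cell handling, gave 2 rises and 16 falls of 21 (median -1.27), KLF6 and FOS falling with log2 changes of -3.37 and -2.68. Somatic sums were lower in spermatocytes as given above, and their part in these groups was not tested.

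Late germ cell groups did not follow 1 direction. Of 33 acrosome and zona binding genes 12 rose and 18 fell (median -0.91), yet their summed level was 12716 to 12939.5 CPM in spermatogonia and 18263 to 20360.4 CPM in spermatocytes. The summed level follows its most abundant members, CLGN among them. GOPC, a Golgi protein of acrosome building, rose by 1.97, and IZUMO2 and SPACA3, sperm surface proteins, fell, with log2 changes of -3.10 and -3.996. Coiled-coil genes with the symbol CCDC gave 48 rises and 35 falls of 99 (median 0.39, below 0 on TPM, with 31 rises and 40 falls at a pseudocount of 1, and without scaling factors). Deubiquitinases of the USP family gave 24 and 15 of 47, USP33 rising by 3.05 and USP22 falling with a log2 change of -2.32. Zinc finger genes with the symbol ZNF, at 87 rises and 85 falls of 237 (median -0.01), were divided almost evenly, but with 47 rises and 109 falls on TPM with a pseudocount of 1, and the proteasome gave 13 and 14 of 35.

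Genes of the X chromosome were more often lower in spermatocytes than autosomal genes were. Of 415 tested X-linked genes 10.4% rose and 56.9% fell, 2.65% and 31.1% in the 2-fold test, against 30.2% and 44.0%, and 11.97% and 20.98%, of 12252 autosomal genes. The share of falls in the 2-fold test was the highest of any chromosome, the autosomes reaching from 11.8 to 26.2%. Of counts on genes placed on an autosome or the X, X-linked genes took 0.635, 0.630 and 0.628% in spermatogonia 1, 2 and 3. In spermatocytes 2, 3 and 4 they took 0.280, 0.203 and 0.407%. The mitochondrial share given above was of all counts instead. The share was 2.12 times higher in spermatogonia and the groups do not overlap (0.631 ± 0.003% against 0.297 ± 0.103%, SD, n = 3, two-sided exact permutation test p = 0.1, the smallest that 3 against 3 allows). The median change of X-linked genes was 0.56 below that of autosomal genes on the log2 scale, at -0.86 against -0.30. Per library, the gap was taken against the spermatogonia mean on log2(CPM + 0.5), a scale that draws low genes towards 0. On that scale the gap was -0.37, -0.52 and -0.14 for spermatocytes 2, 3 and 4, so spermatocyte 4 stood nearest to the autosomes. It also held the highest Sertoli, myoid, endothelial and leukocyte sums among spermatocytes, though the Sertoli markers SOX9 and CLDN11 were lowest there. GATA4 was highest there, and WT1, INHA and FSHR were highest in spermatocyte 2. Of the round spermatid markers, ACRV1, SPACA1, TNP2 and PRM2 were highest in spermatocyte 4 and TNP1 and PRM1 in spermatocyte 2. The part of these somatic and spermatid transcripts in the gap was not tested. Without spermatocyte 4 the fitted gap was -0.81, and on TPM with a pseudocount of 1 it was -0.15.

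Single X-linked genes ranged widely. BCAP31, a chaperone of the endoplasmic reticulum, stood at 104, 96.7 and 104 CPM in spermatogonia and 16.97, 13.3 and 24.03 in spermatocytes (log2 change -2.49 ± 0.20 SE, adjusted p = 3.15e-06). RPL10, a ribosomal protein with an autosomal retrocopy in mammals, stood at 44.2, 41.6 and 42.3 and 5.84, 4.56 and 7.16 CPM (log2 change -2.86 ± 0.22 SE, adjusted p = 2.25e-06), and the proton pump subunit ATP6AP1 at 31.5, 30.2 and 30.98 and 3.55, 2.82 and 4.88 CPM (log2 change -3.04 ± 0.23 SE, adjusted p = 2.18e-06). These genes lie near each other (BCAP31 at chromosome X, 124456999 to 124484923; RPL10 at chromosome X, 124927249 to 124929791; ATP6AP1 at chromosome X, 124952532 to 124960344). Others rose. AP1S2 (chromosome X, 12367785 to 12397672), an adaptor of vesicle coats, stood at 12.9, 12.3 and 12.5 and 53.3, 48.6 and 61.7 CPM (log2 change 2.12 ± 0.12 SE, adjusted p = 6.18e-07). THOC2, of the complex that hands messages to export, stood at 11.08, 10.9 and 10.4 and 27.2, 25.9 and 48.9 CPM (log2 change 1.66 ± 0.30 SE, adjusted p = 0.000558), with spermatocyte 4 the highest. ZNF711 and CYLC1, the latter a protein of the sperm head, rose by 1.59 and 1.53.

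Autosomes differed among themselves. The median change ran from -0.64 on chromosome 12, -0.61 on chromosome 17 and -0.59 on chromosome 6 to 0.14 on chromosome 10, 0.17 on chromosome 16 and 0.29 on chromosome 11. Chromosome 12 had 21.9% of its 780 tested genes risen and 55.4% fallen, and chromosome 11 had 48.1% of 212 risen and 30.7% fallen. The order was much the same in each spermatocyte library. Against the spermatogonia mean, on the same log2(CPM + 0.5) scale, chromosome 12 had medians of -0.50, -0.48 and -0.46 in spermatocytes 2, 3 and 4. Chromosome 11 had medians of 0.21, 0.23 and 0.27 in the same libraries. Genes of 1 chromosome are not replicates, and no test was made of these medians.

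**Figure D5:**
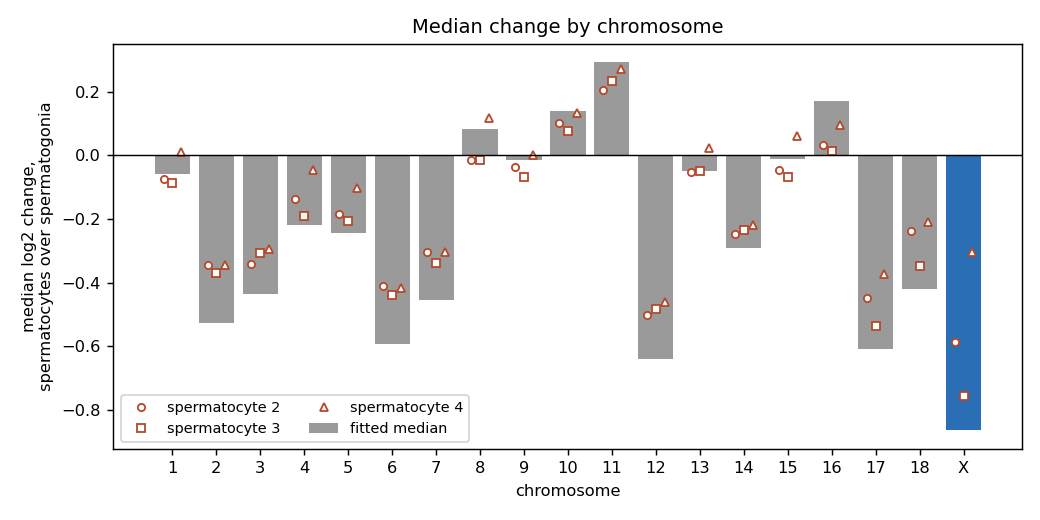
Median log2 change of tested genes on each chromosome (bars), with the same median for each spermatocyte library against the spermatogonia mean (points, from log2(CPM + 0.5), which draws low genes towards 0). The X has the lowest median, -0.86, with spermatocyte 4 at -0.30, and chromosome 11 the highest of the nuclear chromosomes with over 2 tested genes, 0.29.

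Gene length went with direction only weakly. Across the 16802 tested genes, which are not independent replicates, Pearson's r between log2 length and log2 change was -0.02 and Spearman's rho was -0.04. In 5 equal bins of length, the longest genes had a median change of -0.53, with 22.6% risen and 51.1% fallen, and the shortest one of -0.32, with 29.9% risen and 42.0% fallen. The difference of -0.20 turned to 0.0899 on TPM with a pseudocount of 1.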

How the data were processed

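Libraries of total RNA from pig testis cells were made with a directional kit and read from both ends, per the labels' protocols. The submitters' processing notes name the build Sscrofa11.1 and bcl2fastq. Which aligner, quantifier, annotation and strand setting were used is not given in the sources used here. The authors deposited estimated counts and TPM per gene, with 1 column per library. Of 15 library columns, 6 matched no sample of the labels and were not used.

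Estimated counts were rounded, filtered with filterByExpr, scaled with TMM factors and fitted over all 9 libraries with edgeR 4.0.16 (glmQLFit, glmQLFTest, glmTreat against 2-fold) in R 4.3.3. P-values were Benjamini-Hochberg adjusted over the 16802 tested genes and called below 0.05. Alternatives used DESeq2 1.42.0, limma 3.58.1 on log2(TPM + 1) and log2(TPM + 0.1), other filters and scalings, a replicate block, summed spermatogonia libraries, and each library left out. The procedure was tested on simulated data. Tables and figures used Python 3.11.15, numpy 2.4.6, pandas 2.3.3 and matplotlib 3.10.9.

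Symbols were found for 14749 of 22342 gene identifiers; positions come from a RefSeq table of Sscrofa11.1 matched by symbol, which gave chromosomes for 12682 tested genes. Overlapping, antisense and family genes are uncertain.

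Members, lists and rules were chosen with earlier results of these data known. Lists are described by counts and medians, without a test of the list. Named genes are called genes without overlap of the libraries: the 12 steepest rises and falls of at least 50 CPM, the 8 largest by CPM difference, the 5 steepest on the X of at least 10 CPM, up to 4 members of a list in its main direction and 2 in the other, up to 2 each way per family, and fixed cell type markers; the text names some of them. AMH, FSHR, LHCGR, KIT and the round spermatid genes are such markers. Promoter composition, planned beside gene length, was not analysed here.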

Additional observations from a re-analysis of the deposited data

How the results depend on the processing

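Directions and calls were followed over 144 of the named genes and 17 alternatives. Most of these genes were named because they passed the test without overlap of the libraries. That they seldom reversed therefore says little of other genes, and some list medians changed sign, as given above. Among the values of these 144 genes 9 reversed, 3 of KIT and 6 of TNP2, neither of which had passed the test. The log2 change of KIT was -0.28 on TPM with a pseudocount of 0.1, -0.22 with a pseudocount of 1 and -0.18 without scaling factors. TNP2, at -0.10, turned to 0.068 with DESeq2 and with its size factors, 0.11 without a filter on low counts and with only the 2 stages fitted and 0.13 without the 50 most abundant genes, and ran from -0.47 to 0.29 with 1 library left out. A call was gained in 15 values: 6 for KIT as a rise, and 3 for PRM1 and 6 for PRM2 as falls, those of PRM2 including the fits without spermatocyte 3 and without spermatocyte 4. A further 33 values kept their direction but lost the call, 11 of them for DMC1, 7 for AMH and the others for YBX2, CYLC1, CENPM, SYCP3, TNP1, NANOS1 and GFRA1 on TPM, with only the 2 stages fitted, with the spermatogonia libraries summed, without a filter on low counts or without the 50 most abundant genes. The 4930 rises became 2633 on TPM with a pseudocount of 0.1, 2604 with a pseudocount of 1 and 3228 with the spermatogonia libraries summed. The 2045 rises in the 2-fold test became 1202 without scaling factors and 1118 with those libraries summed. The gap between X-linked and autosomal medians was -0.15 on TPM with a pseudocount of 1. Leaving out 1 library at a time, it ran from -0.81 to -0.44, the largest without spermatocyte 4. The difference between the longest and the shortest genes of 5 length bins was -0.31 with a filter of 1 CPM in 3 libraries and -0.044 on TPM with a pseudocount of 0.1, turned to 0.0899 with a pseudocount of 1, and ran from -0.23 to -0.14 with 1 library left out. The cause of these shifts was not tested. Leaving out 1 library gave 4438 to 4886 rises and 6870 to 7692 falls.

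Whether equal replicate numbers pair the samples could not be told. Deviations of spermatocyte and spermatogonia libraries of the same number correlated at -0.12 for number 2 and -0.01 for number 3 across genes. Pairs of unlike number ran from -0.05 to 0.12. The stages share only numbers 2 and 3, and spermatogonia libraries differed little from each other, so a pairing could hardly show. With the replicate block, 4638 genes rose and 7277 fell, and the X gap was -0.81. The spermatogonia libraries were close to counting noise, so the spread there may be understated.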
